A study of Homo sapiens with 4 samples.

Results

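The SLC25 genes encode the carriers of the inner mitochondrial membrane, and their messages were read here in HEK293 cells, a cultured line of embryonic kidney origin. The members were chosen by name, as every gene on the array whose symbol was SLC25A followed by a number. This rule used no measured value, but earlier results of these arrays were known when the list was named. This gave 47 genes, read by 48 array targets and 144 probes, of 17217 named genes in all. The reference gene table held 48 such genes, and SLC25A14 was the gene without a matched target. The paper states that the HEK293 line arose by transformation of embryonic kidney cells with adenovirus DNA. The 4 samples formed a single group of HEK293 cells, for which the paper describes no treatment or transfection. Each came from a culture plate and RNA extraction of its own and was hybridised to 1 single-colour NimbleGen array. The group is a single cell line under a single growth condition, so no comparison between conditions was possible.

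Mitochondrial carriers are small proteins built from a repeated pair of membrane helices, and they exchange a solute of the matrix for a solute of the cytosol. They move ADP and ATP, phosphate, the acids of the citrate cycle, amino acids, carnitine esters, nucleotides, cofactors and iron. All of them are made in the cytosol from nuclear genes and are inserted into the membrane by a dedicated import route. Several have close relatives that are used in particular tissues, such as testis, liver, heart or red cell precursors.

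The question put to each carrier was whether its message stood above the study's threshold for significant expression. The study takes the mean of seminal proteins that HEK293 cells are unlikely to make as zero expression, and that mean plus 2 SD on each array as the threshold, called the baseline here. The control genes averaged 7.47 log2 units over the 4 arrays and the baseline 10.10, so a gene somewhat below the baseline may still lie above the mean of the controls. The baseline stood at 9.47, 9.94, 10.69 and 10.32 log2 units on replicates 1 to 4. The distance of a gene is its log2 value minus the baseline of the same array, and a gene is called detected where the mean distance over the 4 arrays is above 0. The baseline was highest on replicate 3 and lowest on replicate 1, which moves the distances of every gene down or up together on those arrays. A distance is not an amount of message, because each probe binds with its own affinity, and lower distances in some genes than in others are not read as an order of abundance. In RNA from a whole culture, fewer cells with a message and less message per cell cannot be told apart.

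Of the 47 carriers, 32 (68.1%) were detected, against a background of 52.7% of all named genes. They stood above the baseline on all 4 arrays in 29 cases (61.7%, background 45.0%) and below it on all 4 arrays in 12. No share of all genes was taken for the last count. A one-sided limma test across all genes called 29 carriers above the baseline at an adjusted p of 0.05 (61.7%, background 45.9%). The median distance was 1.34 log2 units for the carriers and 0.26 for all genes. The median SD of the log2 level between arrays was 0.32 for the carriers and 0.42 for all genes. For the distances, whose SDs are given below, it was 0.59 and 0.63. The share of carriers above the baseline was not tested against other genes, since the list was named with earlier results of these arrays known.

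**Figure D1:**
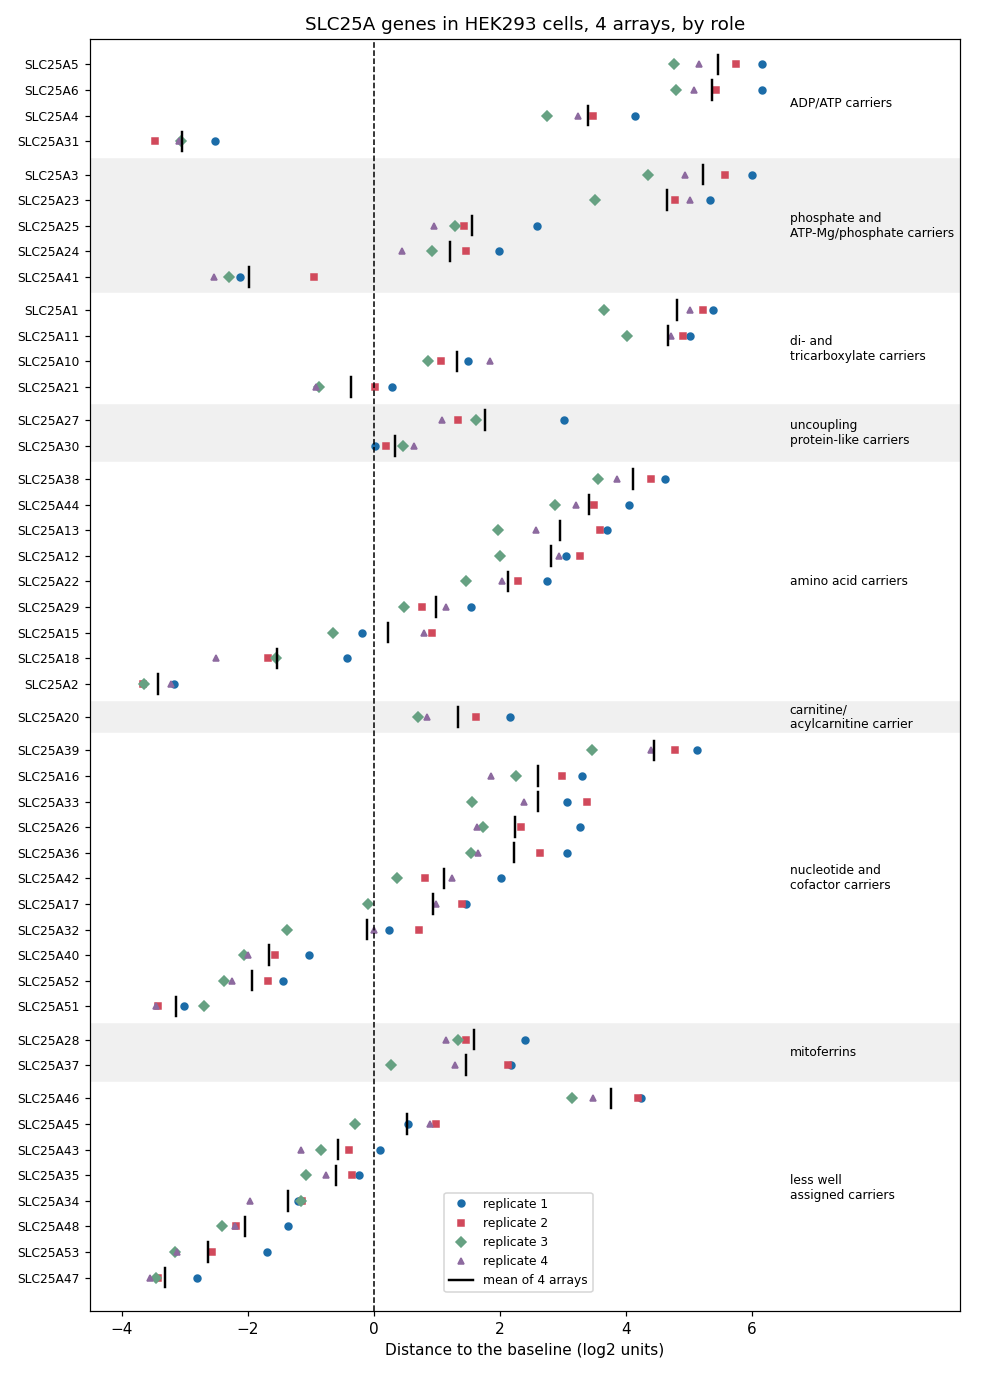
Distance to the baseline in log2 units (x axis) of 46 SLC25A genes (rows, grouped by role). Symbols mark the 4 arrays, the black bar their mean, and the dashed line the baseline. Of these genes, 28 have all 4 arrays to the right of the line, 12 have all 4 to the left and 6 straddle it.

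The ADP/ATP carriers hand matrix ATP to the cytosol in exchange for ADP. SLC25A5, the isoform of dividing cells, stood 6.16, 5.75, 4.77 and 5.16 log2 units above the baseline on replicates 1 to 4, with a mean of 5.46 ± 0.61 (SD, n = 4). SLC25A6, the isoform found in most tissues, stood at 6.16, 5.44, 4.80 and 5.09, with a mean of 5.37 ± 0.59 (SD, n = 4). SLC25A4, the isoform of heart and skeletal muscle, stood at 4.14, 3.48, 2.75 and 3.24, with a mean of 3.40 ± 0.58 (SD, n = 4). These 3 genes were above the baseline on every array, and their log2 levels before subtraction had SDs of 0.11, 0.11 and 0.10. The fourth isoform, SLC25A31, belongs to male germ cells. It lay below the baseline by 2.51, 3.47, 3.06 and 3.09 log2 units, a mean distance of -3.03 ± 0.40 (SD, n = 4), and none of its probes had a mean over 7.25. The probes of SLC25A5 averaged 15.26 to 15.70 log2 units and those of SLC25A6 14.66 to 15.83, close to the highest value in the table, 15.99, and whether these probes were saturated was not examined. The reference lists 9 pseudogenes named for SLC25A5 and 6 for SLC25A6. Since probe sequences were not used here, signal shared among these copies and isoforms was not tested.

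The promoters of the first and last of these isoforms are shown because the genes differ in detection while the ratio of observed to expected CpGs is similar. Each is the 250 bases before the RefSeq transcription start in GRCh38.p14, on the plus strand, at chrX:119468194-119468443 for SLC25A5 and chr4:127730150-127730399 for SLC25A31. Capitals mark the CpG dinucleotides.
SLC25A5: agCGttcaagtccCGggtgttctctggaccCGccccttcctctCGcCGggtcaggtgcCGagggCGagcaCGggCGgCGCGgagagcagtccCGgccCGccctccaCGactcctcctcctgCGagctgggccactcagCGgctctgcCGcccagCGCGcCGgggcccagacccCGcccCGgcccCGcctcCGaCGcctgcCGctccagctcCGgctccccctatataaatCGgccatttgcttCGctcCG
SLC25A31: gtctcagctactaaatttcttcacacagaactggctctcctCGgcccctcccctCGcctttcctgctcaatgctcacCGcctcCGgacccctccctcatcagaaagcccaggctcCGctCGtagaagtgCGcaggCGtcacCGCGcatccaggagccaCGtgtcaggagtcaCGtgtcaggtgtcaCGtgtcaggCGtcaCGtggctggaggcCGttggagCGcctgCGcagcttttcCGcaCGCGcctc
The first window holds 30 CpGs and the second 21, and the ratio of observed to expected CpGs was 0.93 and 0.87. The window of SLC25A31 also holds 4 copies of CACGTG, a palindrome searched after the sequence had been seen. At least 1 copy was found in 7.92% of the 13807 gene windows of this length and in 7 of 39 carrier windows, and 5 genes of the 13807 had 4 or more. A match of letters is a description and not a binding site.

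Phosphate enters the matrix through SLC25A3, which supplies the phosphate for ATP synthesis. Its distances were 6.01, 5.58, 4.35 and 4.94, with a mean of 5.22 ± 0.72 log2 units (SD, n = 4). The gene had 2 targets on the array, which stood at 5.38 ± 0.81 and 5.06 ± 0.66 (SD, n = 4 for each). The calcium-regulated ATP-Mg/phosphate carriers adjust the adenine nucleotide content of the matrix. Of these SLC25A23 stood at 4.66 ± 0.80, SLC25A25 at 1.57 ± 0.71 and SLC25A24 at 1.21 ± 0.67 (SD, n = 4 for each), and none of them fell below the baseline on any array. The 3 probes of SLC25A24 ran from 7.64 to 12.46 log2 units, and with the mean of their log2 values its distance was 0.51 and did not pass the test. SLC25A41, their relative, lay below the baseline on all 4 arrays at -1.97 ± 0.70 (SD, n = 4).

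The carriers of citrate cycle acids link the cycle to fatty acid synthesis and to the redox shuttles. SLC25A1 exports the citrate from which cytosolic acetyl-CoA is made. It stood 5.39, 5.22, 3.65 and 5.02 log2 units above the baseline, with a mean of 4.82 ± 0.80 (SD, n = 4), and was lowest on replicate 3. SLC25A11, which exchanges oxoglutarate for malate, stood at 5.02, 4.91, 4.02 and 4.71, with a mean of 4.67 ± 0.45 (SD, n = 4). The dicarboxylate carrier SLC25A10 stood at 1.50, 1.07, 0.86 and 1.84, with a mean of 1.32 ± 0.44 (SD, n = 4). The exception was SLC25A21, the oxodicarboxylate carrier of lysine and tryptophan breakdown, at 0.30, 0.02, -0.87 and -0.91, with a mean of -0.37 ± 0.62 (SD, n = 4). It was above the baseline on replicates 1 and 2 and below it on replicates 3 and 4, where the baseline itself was higher. Its log2 levels before subtraction, 9.76, 9.96, 9.82 and 9.41 on replicates 1 to 4, did not split this way, with replicate 3 above replicate 1. A single probe averaged 11.16 log2 units and the others 6.98 and 7.01, on either side of the mean baseline of 10.10.

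Amino acid carriers feed the malate-aspartate shuttle, the urea cycle and mitochondrial protein and haem synthesis. Of 9 such genes 7 were detected (all genes 52.7%) and 6 were above the baseline on all 4 arrays (all genes 45.0%). The aspartate-glutamate carriers came as a pair. SLC25A12, the form of brain and muscle, had distances of 3.06, 3.28, 2.00 and 2.94, with a mean of 2.82 ± 0.56 (SD, n = 4). SLC25A13, or citrin, the form of liver, had 3.71, 3.60, 1.97 and 2.58, with a mean of 2.96 ± 0.84 (SD, n = 4). Both lay above the baseline on every array.

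The glutamate carriers differed in their calls. SLC25A22 was detected at 2.14 ± 0.54 and its relative SLC25A18 lay at -1.54 ± 0.86 (SD, n = 4 for each), below the baseline on all 4 arrays. The probes of SLC25A22 averaged 8.17, 10.99 and 13.56 log2 units, the widest range of any carrier. SLC25A38, a glycine carrier needed for haem synthesis, stood at 4.11 ± 0.49, SLC25A44, a carrier of branched-chain amino acids, at 3.41 ± 0.50 and the basic amino acid carrier SLC25A29 at 0.98 ± 0.46 (SD, n = 4 for each).

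Ornithine carriers connect the urea cycle with the matrix. SLC25A15, the main form, stood at -0.19, 0.92, -0.64 and 0.80, with a mean of 0.22 ± 0.76 log2 units (SD, n = 4, limma adjusted p = 0.521). It was above the baseline on replicates 2 and 4 and below it on replicates 1 and 3, and its log2 levels before subtraction split the same way, at 9.28 and 10.05 on replicates 1 and 3 and 10.86 and 11.12 on replicates 2 and 4. The arrays as a whole divided likewise, with Pearson's r across genes, which are not independent replicates, of 0.971 between replicates 1 and 3, 0.977 between replicates 2 and 4 and 0.949 to 0.959 for the other pairs. Levels on replicates 2 and 4 were both above those on replicates 1 and 3 in 11 of the 47 carriers and 18.5% of all genes, and both below in 10 carriers and 22.2% of all genes. Its part in the values of SLC25A15 was not tested. Without replicate 2 the mean of SLC25A15 was -0.0086. Its 3 probes averaged 10.13 to 10.26, all just above the mean baseline of 10.10. SLC25A2, a form without introns, had distances of -3.17, -3.66, -3.64 and -3.21 and a mean of -3.42 ± 0.27 (SD, n = 4), the lowest of the 47 genes.

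Enzymes that work with these carriers were read from a fixed list of 18. Of these 15 were detected (all genes 52.7%) and 13 were above the baseline on all 4 arrays (all genes 45.0%). All enzymes of the malate-aspartate shuttle were among them, with GOT1 at 3.20 ± 0.81, GOT2 at 5.16 ± 0.57, MDH1 at 3.44 ± 0.82 and MDH2 at 5.35 ± 0.56 (SD, n = 4 for each). So were ACLY, which cleaves the exported citrate, at 5.28 ± 0.86, and citrate synthase, CS, at 5.20 ± 0.63 (SD, n = 4 for each). In the urea cycle, ASS1 stood at 3.88 ± 0.71 and ASL at 1.92 ± 0.74, while OTC, which uses the ornithine in the matrix, lay at -3.78 ± 0.36 and ARG1 at -3.16 ± 0.23 (SD, n = 4 for each). CPS1 was near the baseline at 0.23 ± 0.37 (SD, n = 4, limma adjusted p = 0.515).

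SLC25A20 brings acylcarnitines into the matrix for fatty acid oxidation. Its distances were 2.16, 1.63, 0.70 and 0.85, with a mean of 1.34 ± 0.68 log2 units (SD, n = 4), above the baseline on every array. The carnitine palmitoyltransferases on the outer side, CPT1A and CPT1B, stood at 1.08 ± 0.15 and 1.51 ± 0.70 (SD, n = 4 for each). CPT2, the enzyme on the matrix side, lay below the baseline on all 4 arrays at -0.77 ± 0.58 (SD, n = 4).

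Carriers of nucleotides and cofactors were detected in 8 of 12 cases (all genes 52.7%). SLC25A39, which imports glutathione, stood at 4.45 ± 0.72, while its relative SLC25A40 lay below the baseline on all 4 arrays at -1.66 ± 0.47 (SD, n = 4 for each). The pyrimidine nucleotide carriers SLC25A33 and SLC25A36 stood at 2.60 ± 0.81 and 2.22 ± 0.74 (SD, n = 4 for each). SLC25A26, which imports S-adenosylmethionine, stood at 2.25 ± 0.75 (SD, n = 4).

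Carriers linked to coenzyme A were detected as well. SLC25A16 stood at 2.60 ± 0.66 and SLC25A42 at 1.11 ± 0.71 (SD, n = 4 for each). With the median of its probes SLC25A42 stood at 0.26, and on replicates 3 and 4 alone at 0.80, and passed the test in neither case. SLC25A17 lies in the membrane of peroxisomes rather than mitochondria. Its distances were 1.47, 1.39, -0.09 and 0.99, with a mean of 0.94 ± 0.72 (SD, n = 4, limma adjusted p = 0.0085). It passed the test although replicate 3 lay below the baseline. Without replicate 2 the mean was 0.79 and did not pass the test.

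SLC25A32, the folate carrier, was the gene nearest to the baseline. Its distances were 0.25, 0.72, -1.38 and 0.01, with a mean of -0.10 ± 0.90 (SD, n = 4), so that it was above the baseline on 3 arrays and not detected by the mean. Without replicate 3 the mean was 0.32. A single probe averaged 11.23 log2 units and the others 7.69 and 8.75.

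The NAD carriers were not detected. SLC25A51, which brings NAD into the matrix, had distances of -3.01, -3.42, -2.69 and -3.46 and a mean of -3.14 ± 0.36 (SD, n = 4). Its probes averaged 6.47 to 7.46 log2 units. Its close copy SLC25A52 lay at -1.93 ± 0.45 (SD, n = 4), also below the baseline on all 4 arrays. A value this low says that these probes gave no signal over the baseline, and whether the probes can bind the transcript was not tested.

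Iron reaches the matrix through the mitoferrins, where it is built into haem and iron-sulphur clusters. SLC25A28, the form of most tissues, stood at 2.39, 1.46, 1.34 and 1.15, with a mean of 1.59 ± 0.55 (SD, n = 4). SLC25A37, the form of red cell precursors, stood at 2.17, 2.13, 0.28 and 1.29, with a mean of 1.47 ± 0.89 (SD, n = 4). Both were above the baseline on all 4 arrays. All 5 erythroid markers, among them HBB and ALAS2, were below the baseline on all 4 arrays, with mean distances of -3.32 to -2.00.

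Of the carriers related to uncoupling proteins, 2 had a matched target under an SLC25A symbol. Both were detected, but neither passed the limma test under every way of processing. The mean of SLC25A27 stayed above the baseline under every alternative, and that of SLC25A30 did not. SLC25A27 stood at 3.01, 1.34, 1.62 and 1.08 and was above the baseline on every array, with a mean of 1.76 ± 0.86 (SD, n = 4). Its probes averaged 9.10, 10.12 and 13.18 log2 units, and with the median of the probes in place of their mean its distance was 0.29 and did not pass the test. SLC25A30 stood at 0.02, 0.20, 0.46 and 0.65, with a mean of 0.33 ± 0.28 (SD, n = 4, limma adjusted p = 0.346). The uncoupling proteins proper carry symbols of their own. Of these UCP2 stood at 3.27 ± 0.98, while UCP1, the heat-producing protein of brown fat, lay at -1.41 ± 1.26 and UCP3, of skeletal muscle, at -1.63 ± 0.40 (SD, n = 4 for each). The carrier-like proteins of the outer membrane MTCH1 and MTCH2 stood at 4.71 ± 0.63 and 1.65 ± 0.70 (SD, n = 4 for each).

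Carriers whose substrate or role is less well assigned gave 2 detected genes of 8 (all genes 52.7%). SLC25A46, which sits in the outer membrane and shapes the mitochondrial network, stood at 3.76 ± 0.54 (SD, n = 4) and above the baseline on all 4 arrays. SLC25A45 stood at 0.54, 0.99, -0.30 and 0.89, with a mean of 0.53 ± 0.59 (SD, n = 4, limma adjusted p = 0.135). Its probes averaged 7.04, 9.84 and 11.85 log2 units, and without replicate 3 its mean was 0.81 and passed the test. Among those not detected, SLC25A47, a liver carrier, had distances of -2.81, -3.41, -3.46 and -3.55 and a mean of -3.31 ± 0.34 (SD, n = 4). SLC25A53 had -1.69, -2.56, -3.15 and -3.12 and a mean of -2.63 ± 0.68 (SD, n = 4). The means of SLC25A34, SLC25A35, SLC25A43 and SLC25A48 ran from -2.04 to -0.57. All of these 6 genes lay below the baseline on all 4 arrays, except SLC25A43, which was above it by 0.10 on replicate 1.

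**Figure D2:**
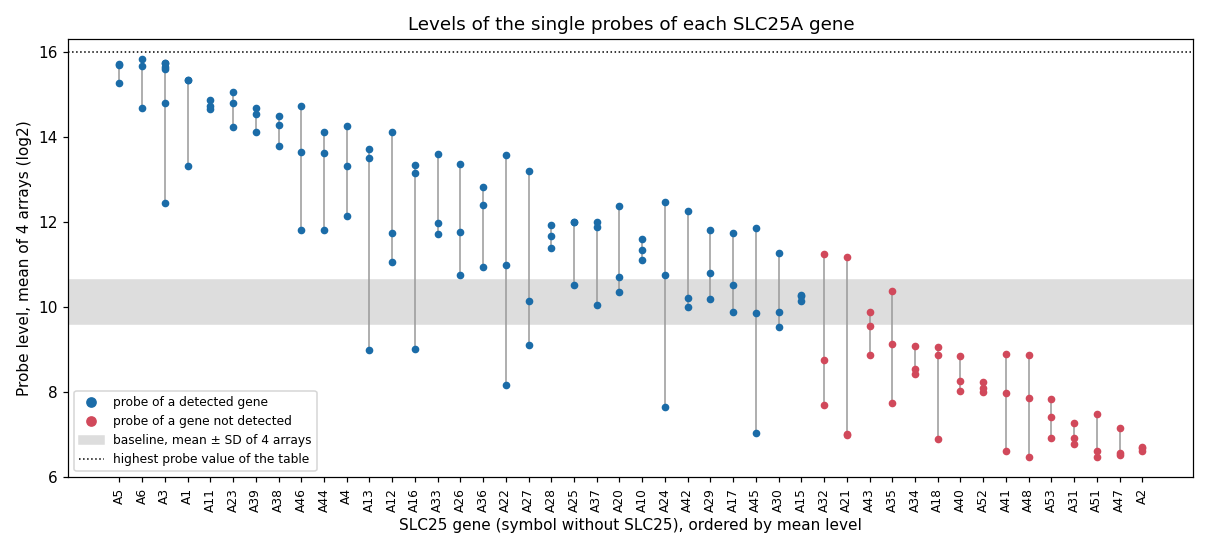
Mean log2 level over 4 arrays (y axis) of every probe of 46 SLC25A genes (x axis, symbols without SLC25). Grey lines join the probes of a gene, the grey band is the baseline of 10.10 ± 0.52 (mean ± SD, n = 4 arrays), and the dotted line is the highest value of the table, 15.99. In 21 of the 31 detected genes plotted all probes lie above the mean baseline.

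The probes of a carrier often disagreed. The gaps and probe counts below were not taken for all genes, so they do not set the carriers apart. The median gap between the lowest and the highest probe of a gene was 1.89 log2 units, and it was over 2 in 21 of 47 genes. All probes had a mean above the mean baseline in 22 of the 32 detected genes, 2 of 3 probes in 8 and 1 of 3 in SLC25A30 and SLC25A45. Of the 15 genes not detected, 12 had no probe above it and 3 had 1, which were SLC25A21, SLC25A32 and SLC25A35. In SLC25A30 and SLC25A45 the highest probe averaged 11.27 and 11.85, and the others lay below 10.10.

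Carriers reach the inner membrane by a dedicated route of receptors, small chaperones and the TIM22 complex. Of 13 genes on a fixed list for this route 11 were detected (all genes 52.7%), 10 of them on every array (all genes 45.0%). The limma test called 9 (all genes 45.9%). TOMM22 at 0.014 ± 0.045, above the baseline on 2 arrays, and TIMM29 at 0.70 ± 0.52 were detected without passing it (SD, n = 4 for each). TOMM20 and TOMM70, receptors of the outer membrane, stood at 4.80 ± 0.84 and 3.12 ± 0.63, and the pore TOMM40 at 4.25 ± 0.50 (SD, n = 4 for each). TIMM22, the inner membrane insertase for carriers, stood at 4.25 ± 0.66, and the chaperones TIMM9 and TIMM10 at 1.38 ± 0.86 and 1.45 ± 0.72 (SD, n = 4 for each). TIMM13 and TIMM8A, which form another chaperone pair, lay at -0.35 ± 0.66 and -0.07 ± 0.50 (SD, n = 4 for each), within the spread between arrays.

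Mitochondrial transporters outside the carrier family were all detected, 12 of 12 (all genes 52.7%), and all were above the baseline on all 4 arrays (all genes 45.0%). The outer membrane channels VDAC1, VDAC2 and VDAC3 stood at 5.35 ± 0.61, 3.80 ± 0.63 and 4.55 ± 0.66 (SD, n = 4 for each). The pyruvate carrier subunits MPC1 and MPC2 stood at 3.27 ± 0.87 and 3.22 ± 0.60 (SD, n = 4 for each). The median distance of this list was 3.09 log2 units, against 1.34 for the SLC25A genes, a difference that was not tested.

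**Figure D3:**
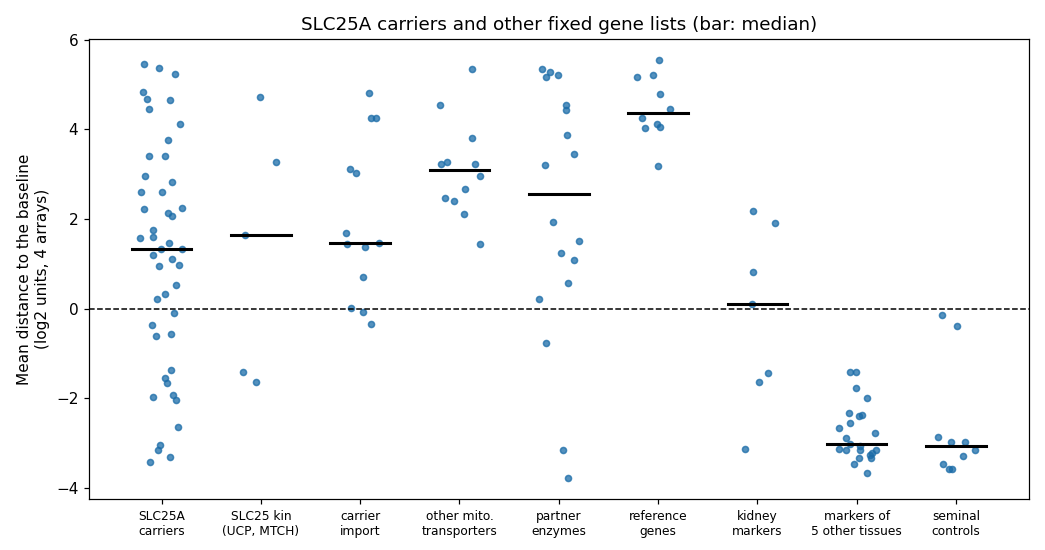
Mean distance to the baseline over 4 arrays in log2 units (y axis) of each gene of the fixed lists (x axis). Points are genes, spread sideways at random, the bars are medians and the dashed line is the baseline. The SLC25A genes run from -3.42 to 5.46 around a median of 1.34, and the markers of other tissues lie below the baseline. The seminal controls also lie below it, but the baseline was computed from these same genes.

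Markers were read to set the carriers linked above to particular tissues in context. All 10 reference genes were detected. None of 23 markers of liver, striated muscle, red cells, brown fat and testis was, and 22 lay under the baseline on every array, the exception being UCP1 on replicate 1. Their mean distances ran from -3.67 to -1.41. The kidney development markers were mixed, with 4 of 7 detected, among them SALL1 at 1.90 ± 0.30, WT1 at 0.81 ± 1.03 and EYA1 at 0.11 ± 0.67 (SD, n = 4 for each). PAX2, PAX8 and LHX1, also defining for embryonic kidney, were below the baseline on all 4 arrays. The carriers SLC25A4, SLC25A13 and SLC25A37, known from muscle, liver and red cell precursors, were detected, while the listed markers of those tissues were not. SLC25A37 lost significance under 3 alternatives. SLC25A31 and SLC25A47 were undetected, as were the listed testis and liver markers. Whether any of these carriers is confined to such a tissue was not tested, and they were not read as markers.

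The promoter windows were then compared by their CpG content, which the choice of members did not use. A window was matched for 39 of 47 carriers and for 13807 genes. A ratio of observed to expected CpGs above 0.6 was found in 23 of 28 detected carriers (82.1%) and in 7 of 11 not detected (63.6%). For all genes the shares were 85.3% of 7588 detected and 42.0% of 6219 not detected. SLC25A40, SLC25A52, SLC25A53, SLC25A31 and SLC25A51 were not detected and had ratios of 1.28, 0.96, 0.92, 0.87 and 0.83. SLC25A23 was detected with a ratio of 0.55 and SLC25A45 with 0.19. With 11 undetected carriers these shares are a description and were not tested.

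**Figure D4:**
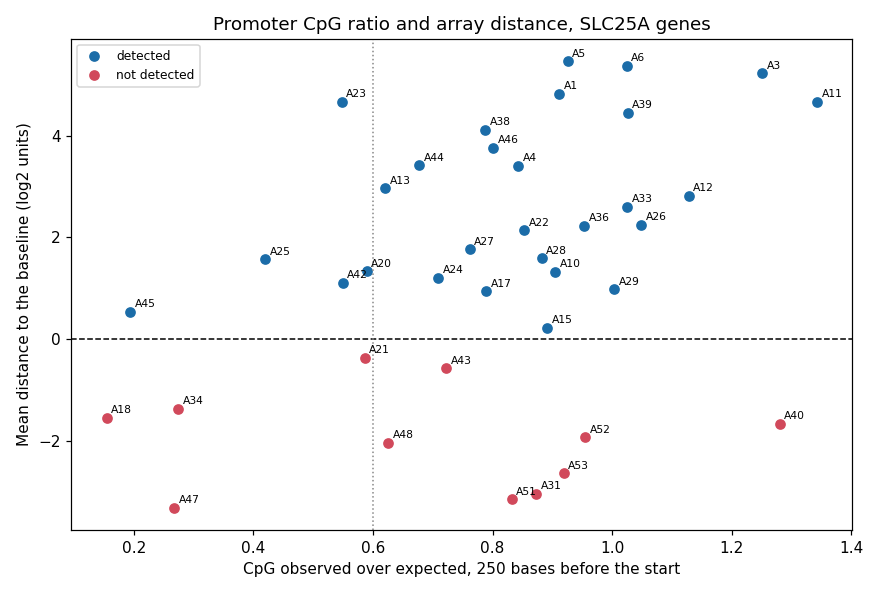
Ratio of observed to expected CpGs in the 250 bases before the start (x axis) and mean distance to the baseline over 4 arrays in log2 units (y axis) of 39 SLC25A genes, labelled without SLC25. The dotted line marks a ratio of 0.6 and the dashed line the baseline. Undetected genes lie on both sides of the dotted line, 7 of 11 to its right.

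The height of the baseline set how many carriers were detected. With 1 SD in place of 2 the count was 36 of 47 (all genes 64.3%), and with 3 SD it was 25 (all genes 39.1%). Without SPATA5 and SPATA13, the control genes nearest to the baseline, it was 42 (all genes 74.0%), and with olfactory receptor genes as controls it was 42 (all genes 71.4%). Single arrays gave 34, 34, 29 and 33 carriers above the baseline on replicates 1 to 4 (all genes 58.1%, 54.2%, 47.4% and 50.2%). The arrays appear to have been normalized in 2 pairs, and the count was 34 on replicates 1 and 2 (all genes 55.9%) and 32 on replicates 3 and 4 (all genes 48.8%). Of the 32 detected carriers 25 kept a mean above the baseline under every alternative run, up to 18 a gene, and of the 15 not detected 5 stayed below it. These 5 were SLC25A2, SLC25A31, SLC25A47, SLC25A51 and SLC25A53.

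**Figure D5:**
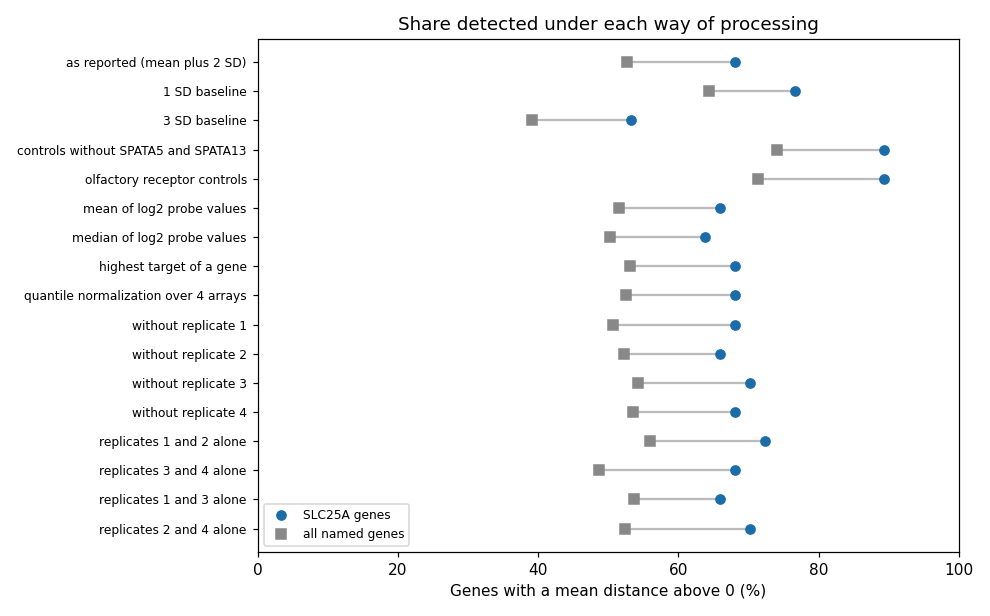
Percent of genes with a mean distance above 0 (x axis) under each way of processing (rows), for the SLC25A genes (circles) and all named genes (squares). The SLC25A share is 68.1% as reported and lies above that of all genes in every row.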

How the data were processed

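HEK293 RNA of 4 cultures was reverse transcribed with oligo(dT), Cy3-labelled and hybridised to NimbleGen 60-mer arrays. The authors deposited 1 log2 intensity per probe and array, and the submitters' processing notes name RMA without settings. Ranked values were nearly identical between replicates 1 and 2 (within 0.01 at 99.97% of ranks) and between replicates 3 and 4 (99.99%), but not across these pairs (1.23% to 1.25%), so the pairs appear to have been normalized separately. Spot-level background and saturation were not examined, and the number of arrays limits the precision.

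Probe names were matched through RefSeq accessions to GRCh38.p14 genes, which named 19125 of 24000 targets. Linear values of the probes of a target were averaged before log2, and targets of a gene were averaged on the log2 scale. The baseline used 10 matched control genes of 11 listed. limma 3.58 in R 4.3 tested distances one-sided against 0 with Benjamini-Hochberg adjustment over 17217 genes. A check on simulated data came first, with noise drawn independently for every gene and array. It did not cover the baseline that all genes of an array share, nor the error of that baseline. All genes shared a standard error of 0.351. With 4 arrays an exact sign-flip test can reach no less than 0.0625.

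The members and lists were chosen with earlier results of these data known. Values on each array are given for the ADP/ATP, phosphate, carboxylate, aspartate-glutamate and carnitine carriers, mitoferrins, members within 1 standard error of the baseline and the 5 highest and 5 lowest means, and for SLC25A17, SLC25A27 and SLC25A45, chosen after their values were seen. Alternatives changed the baseline, controls, probe and target summaries, normalization, arrays, prior and low-level filter. Carrier protein sequences were not used here. The values of 1 carrier, counted in all totals, are not reported here.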

Additional observations from a re-analysis of the deposited data

Results flagged for a closer look

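Of 48 values looked at over the 4 arrays (the distances of 47 genes and the baseline), a single one held an array whose gap exceeded the critical value of Dixon's test, which chance exceeds in about 1 in 20 groups. SLC25A34, a carrier of uncertain substrate, had a distance of -1.97 on replicate 4 and of -1.20 to -1.13 on the others, a gap of 0.915 of its range. In its log2 levels before subtraction, 8.27, 8.81, 9.54 and 8.36, the largest gap was 0.578 of the range and belonged to replicate 3. In the levels of the other carriers, 1 gap exceeded the critical value, that of SLC25A35, where replicate 1 read 9.23 and the remaining arrays 9.56 to 9.62, a gap of 0.838 of the range. The cause was not tested.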

How the results depend on the processing

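The baseline moved from 10.10 to 8.79 log2 units with 1 SD, 11.42 with 3 SD, 7.78 without SPATA5 and SPATA13 and 8.02 with olfactory receptor controls. With 3 SD, 18 carriers lay above it on all arrays and 17 passed the limma test. The other 60 values of the baseline and the counts stayed within 1 SD or 1.5 times. With 32 of 47 carriers detected, no rise in that count could exceed 1.5 times. The 42 detected without SPATA5 and SPATA13 or with olfactory receptor controls were therefore within this limit by construction. For single genes 769 alternative values kept their side of the baseline and of the test, 21 lost and 12 gained significance, and 40 crossed the baseline. Outside the 3 SD baseline, significance was lost in SLC25A17, SLC25A24, SLC25A37 and SLC25A42 on replicates 3 and 4 alone, in SLC25A10, SLC25A17, SLC25A29, SLC25A37 and SLC25A42 on replicates 1 and 3 alone, in SLC25A17 without replicate 2, in SLC25A24 with the mean of log2 probe values and in SLC25A27 and SLC25A42 with their median. The means that crossed it, in log2 units, were with 1 SD SLC25A35 0.71, SLC25A43 0.74, SLC25A21 0.95 and SLC25A32 1.22. With 3 SD they were SLC25A15 -1.09, SLC25A30 -0.98, SLC25A45 -0.78, SLC25A17 -0.38, SLC25A29 -0.34, SLC25A42 -0.21 and SLC25A24 -0.11. Without SPATA5 and SPATA13 they were SLC25A48 0.29, SLC25A41 0.35, SLC25A52 0.40, SLC25A40 0.67, SLC25A18 0.79, SLC25A34 0.97, SLC25A35 1.72, SLC25A43 1.75, SLC25A21 1.96 and SLC25A32 2.23. With olfactory controls they were SLC25A48 0.048, SLC25A41 0.11, SLC25A52 0.15, SLC25A40 0.43, SLC25A18 0.54, SLC25A34 0.72, SLC25A35 1.48, SLC25A43 1.51, SLC25A21 1.72 and SLC25A32 1.98. With the mean of log2 probe values, SLC25A45 -0.19, and with their median, SLC25A45 -0.13 and SLC25A30 -0.098. On replicates 1 and 2 alone, SLC25A21 0.16 and SLC25A32 0.48. On replicates 1 and 3 alone, SLC25A15 -0.41, and on replicates 2 and 4 alone, SLC25A32 0.36, both splits chosen after seeing the data. Leaving out an array in turn gave SLC25A15 -0.0086 to 0.51 and SLC25A32 -0.37 to 0.32. These shifts follow from the height of each baseline or from the probes and arrays kept, and no further cause was tested. No paired analysis was possible because the design holds a single group. What the arrays cannot show is a level for genes below the baseline.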
